A study of Mus musculus with 9 samples.

Results

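The genes described here are macrophage and other myeloid genes, among them growth factor receptors, scavenger and Fc receptors, lectins, Toll-like receptors, activation markers and the transcription factors Spi1 and Cebpb. They were taken as a list of 49 symbols, which name 48 genes because Emr1 is the former symbol of Adgre1, and a gene was kept when a probe named for it was detected (detection p below 0.05) on 4 arrays or more. Of the 48 genes 43 were kept, among 10096 genes tested in all. The other 5 (Msr1, Marco, Trem1, Nos2 and Clec4e) had no probe with their name in the annotation used and were not analysed here. Of the 43 genes 37 were detected on all 9 arrays. The tissue was the environment of B16 tumours, a transplantable mouse melanoma, 14 days after the cells were inoculated into C57/Bl6 mice aged 8 weeks. Illumina arrays measured total RNA of 5 tumours from mice given PBS and 4 from mice given PC61, an antibody to CD25 used to remove regulatory T cells. The dose and days of the antibody are not given in the labels, which also do not say whether a replicate is 1 mouse. A p-value here therefore reflects how far these arrays scatter, which may be technical. The tissue was not sorted, so an array sums tumour cells, infiltrating leukocytes and the tissue around them, and fewer cells of a type cannot be told apart from less RNA per cell.

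Monocytes enter tumours from the blood and turn into macrophages under the control of CSF1, which signals through the receptor encoded by Csf1r, while GM-CSF and G-CSF act through receptors that include the products of Csf2ra, Csf2rb and Csf3r. Macrophages sense microbes, antibodies and dying cells with Toll-like receptors, Fc receptors and lectins, many of which signal through the adaptor proteins encoded by Tyrobp (DAP12) and Fcer1g. Interferon and microbial products push macrophages towards expression of Nos2, and IL-4 and IL-13 towards Arg1, Retnla, Chil3, Mrc1 and Mgl2. Several of these genes are not limited to myeloid cells: Gpnmb is also a melanosome protein of pigment cells, and Apoe and Cebpb are also active in other tissues such as liver, fat and skin.

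Most macrophage and myeloid genes did not pass the test between PC61 and PBS tumours, and those that did went both ways. Cebpb, Mgl2 and Apoe rose in PC61 by 2.46-fold, 2.51-fold and 2.35-fold, and Gpnmb fell to a level 1.87-fold lower. Chil3 fell by 1.27 on the log2 scale, but it was detected on 2 of the 4 PC61 arrays and fell by 0.73 when an offset of 50 replaced the 16 added to each intensity. A gene was called when its limma p, adjusted over all 10096 genes by Benjamini-Hochberg, was under 0.05. The 5 called genes are 11.6% of the 43, while 26.5% of all genes were called. By direction, 3 of 43 were called higher, against 15.4% of all genes, and 2 were called lower, against 11.2%. The log2 differences (PC61 minus PBS) ran from -1.27 for Chil3 to 1.99 for Retnla with a median of 0.22, and the median over all genes was -0.05. The difference was above 0 in 27 of the 43 genes, or 62.8%, and in 46.9% of all genes. The arrays of the groups did not overlap for Cebpb, which was higher on every PC61 array (11.3% of all genes were separated that way), or for Chil3 and Gpnmb, which were lower on every PC61 array (9.96% of all genes).

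PC61 replicate 4 stood apart from the other arrays, and these counts changed without it, as they did without other arrays. Without PC61 replicate 3, 1 of the 43 genes was called higher and 1 lower, against 527 and 226 of all 10096 genes. Without PC61 replicate 4, 4 of the 43 genes were called, or 9.3%, against 19.1% of all genes. Cebpb, Apoe and Coro1a were higher (11.4% of all genes were called higher) and Chil3 was lower (7.72% of all genes). Mgl2 and Gpnmb were then at adjusted p = 0.0506 and 0.0517. The median difference over the 43 genes was 0.36, with 35 genes (81.4%) above 0, against a median of -0.04 and 47.1% over all genes. The groups did not overlap for Cebpb, Csf3r and Coro1a in the higher direction (12.7% of all genes) or for Chil3 and Gpnmb in the lower direction (12.9%). The plot of differences sets both fits side by side for each gene.

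**Figure D1:**
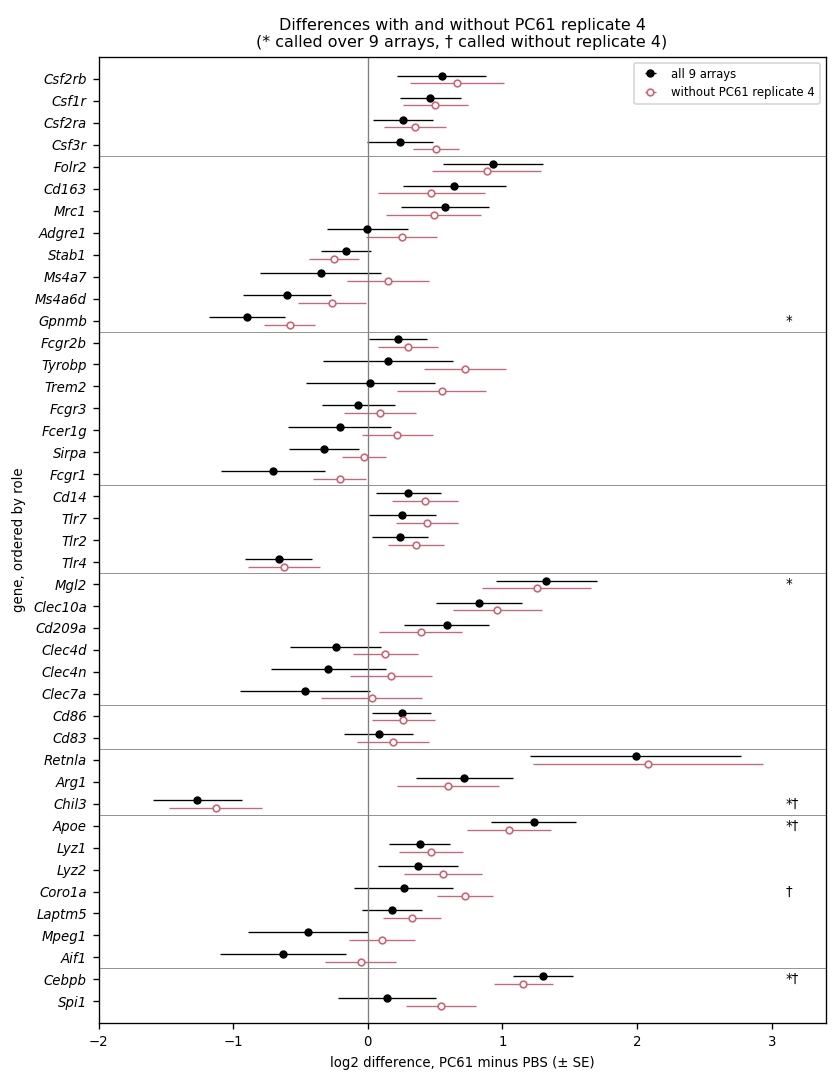
Log2 difference between PC61 and PBS (x axis, with the standard error of limma) for each of the 43 genes (y axis, grouped by role), over all 9 arrays (filled black circles) and without PC61 replicate 4 (open red circles). Asterisks mark the 5 genes called over 9 arrays and daggers the 4 called without that replicate. Genes such as Tyrobp, Trem2 and Aif1 move to the right without it, and Cebpb, Apoe and Chil3 stay close to where they were.

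Seen array by array, the 43 genes did not move as a block. The mean of their log2 values, each set against its PBS mean, was 0.33 on PC61 replicate 1, 0.00 on replicate 2, 0.74 on replicate 3 and -0.40 on replicate 4. On the PBS arrays it ran from -0.17 on replicate 3 to 0.41 on replicate 1, so that 2 of the 4 PC61 arrays lay inside the PBS range, 1 above it and 1 below it. PC61 replicate 3 held the highest value of 26 of the 43 genes, and PC61 replicate 4 held the lowest of 19 and the highest of 4. Against the range of the PBS arrays, 31 genes (72.1%) were above it on PC61 replicate 3, against 32% of all genes. On PC61 replicate 4, 20 genes (46.5%) were below the PBS range and 7 (16.3%) above it, against 37.6% and 36.5% of all genes. Of those 20 genes, 12 were above the PBS range on PC61 replicate 3. The 7 above it on PC61 replicate 4 were Mrc1, Cd163, Folr2, Mgl2, Cd209a, Apoe and Cebpb, of which all but Cd163 were above it on replicate 3 too. The spread within PC61 was larger than within PBS for 34 of the 43 genes, and for 25 of the 43 without PC61 replicate 4. Counts of spread and of highest and lowest values were not made over all genes, so they are not read as particular to these 43. Over all genes PC61 replicate 4 had the lowest median correlation with the other arrays of its group, 0.898.

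**Figure D2:**
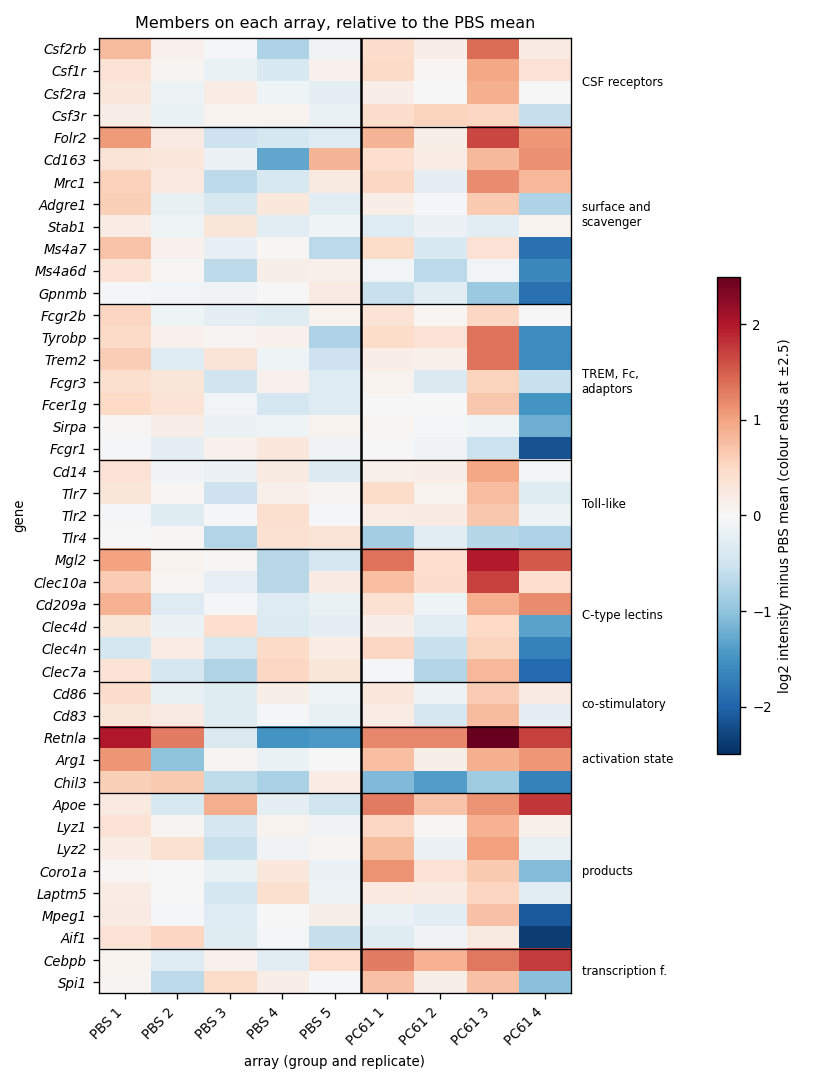
Log2 intensity minus the PBS mean (colour, red higher and blue lower, with the scale ending at 2.5 in each direction) of the 43 genes (rows, grouped by role) on the 9 arrays (columns, PBS left of the line). PC61 replicate 3 is mostly red. PC61 replicate 4 is split, with Aif1, Mpeg1, Fcgr1 and Clec7a blue and Apoe, Cebpb, Mgl2 and Retnla red.

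Lists of markers for other cell types moved with these arrays, and their part in the results was not tested. Over all genes 15.4% were called higher and 11.2% lower, or 11.4% and 7.72% without PC61 replicate 4. The melanocyte list, with 11 of its 12 symbols measured, had 3 genes called lower, or 6 without PC61 replicate 4. Its mean ran from -0.35 to 0.42 in PBS, from -1.66 to -0.36 on PC61 replicates 1 to 3 and was -4.60 on PC61 replicate 4. The keratinocyte list (8 of 10 measured, 6 called higher, or 3 without that array) ran from -1.48 to 0.93 in PBS and from 0.82 to 2.61 in PC61. Skeletal muscle (8 of 8 measured, 8 called higher in both fits) ran from -0.92 to 0.57 in PBS and from 1.42 to 2.68 in PC61. Fibroblast genes (9 of 9 measured, 5 called higher, or 3 without that array) ran from -0.91 to 0.51 and from 0.46 to 1.501. Mast cell genes (6 of 7 measured, 5 called higher, or 4 without that array) ran from -1.05 to 0.70 and from 1.09 to 1.83, and adipocyte genes (4 of 7 measured, 1 called higher in both fits) from -0.90 to 1.52 and from 1.05 to 2.15. T cell genes (6 of 10 measured, 0 called, and 0 at an unadjusted p under 0.05) were at -1.14 on PC61 replicate 4 and between 0.01 and 0.86 on the other PC61 arrays. Their PBS range was -0.46 to 0.51. Without PC61 replicate 4 all 6 T cell differences were above 0 and 1 was called, that of Cd2, a T cell adhesion receptor (0.93 ± 0.29, adjusted p = 0.0458). Neutrophil genes (4 of 12 measured, 0 called in either fit, 1 at an unadjusted p under 0.05, or 2 without that array) reached 1.61 on PC61 replicate 3. They ran from -0.70 to 0.82 in PBS and from -0.12 to 0.58 on the other PC61 arrays. The B cell list had 0 of 7 genes measured.

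**Figure D3:**
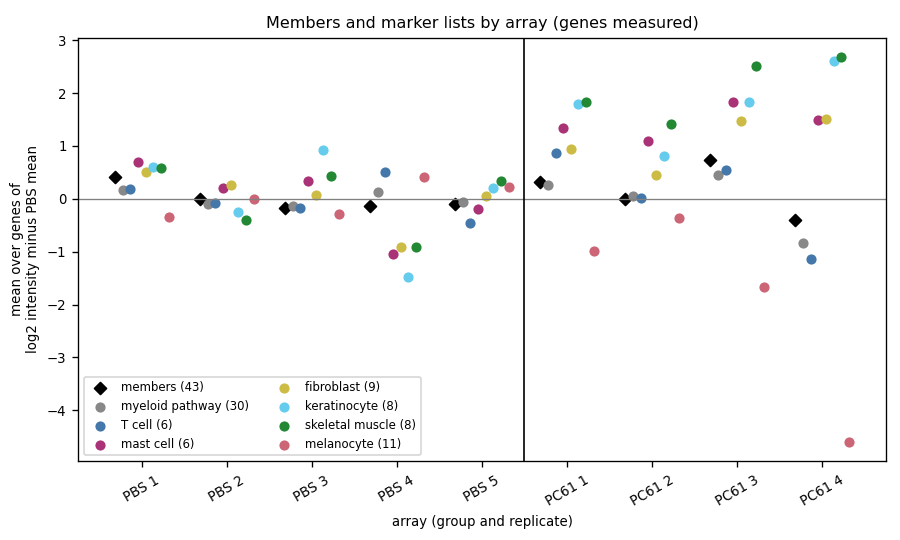
Mean over the genes of a list of log2 intensity minus the PBS mean (y axis) on each array (x axis), for the macrophage and myeloid genes (black diamonds), for the list of further myeloid genes (grey) and for 6 lists of other cell types. On PC61 replicate 4 the melanocyte mean is -4.60 and the skeletal muscle mean 2.68, while the myeloid genes are at -0.40.

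Promoters are shown for Clec4d and Mrc1, which had the most copies, and for Apoe, which had as many as Csf2ra, of the core of the motif bound by PU.1, the product of Spi1 and a master regulator of myeloid genes. The motif searched was GAGGAA on either strand, within 250 bases before and 50 bases after the start of a gene. RefSeq's promoter table (GRCm38.p6) held 28 of the 43 genes, of which 15 (53.6%) had at least 1 match, counting for a gene with several starts the promoter with most matches, against 31.3% of the 27025 genes in the table. Of the 3 genes Apoe was called higher in PC61, and Mrc1 and Clec4d were not called. All 3 were above the PBS range on PC61 replicate 3, and on PC61 replicate 4 Apoe and Mrc1 were above it and Clec4d below it. Without PC61 replicate 4 the differences were 1.05 for Apoe, 0.49 for Mrc1 and 0.13 for Clec4d. Capitals mark the motif, written TTCCTC where it lies on the opposite strand. The sequences are read 5′ to 3′ along each gene, from chr6:123261857-123262156 (plus strand) for Clec4d, chr2:14229164-14229463 (plus strand) for Mrc1 and chr7:19699139-19699438 (minus strand) for Apoe.
Clec4d: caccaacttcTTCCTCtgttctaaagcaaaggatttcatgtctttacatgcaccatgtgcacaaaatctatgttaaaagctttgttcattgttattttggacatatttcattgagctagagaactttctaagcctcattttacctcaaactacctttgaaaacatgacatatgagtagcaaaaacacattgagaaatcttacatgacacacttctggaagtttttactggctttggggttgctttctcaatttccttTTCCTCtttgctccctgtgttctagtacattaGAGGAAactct
Mrc1: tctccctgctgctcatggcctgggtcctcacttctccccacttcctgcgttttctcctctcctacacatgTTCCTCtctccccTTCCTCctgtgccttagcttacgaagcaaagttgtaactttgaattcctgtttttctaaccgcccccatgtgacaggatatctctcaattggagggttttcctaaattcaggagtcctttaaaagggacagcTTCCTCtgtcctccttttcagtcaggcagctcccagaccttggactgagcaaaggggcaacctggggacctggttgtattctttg
Apoe: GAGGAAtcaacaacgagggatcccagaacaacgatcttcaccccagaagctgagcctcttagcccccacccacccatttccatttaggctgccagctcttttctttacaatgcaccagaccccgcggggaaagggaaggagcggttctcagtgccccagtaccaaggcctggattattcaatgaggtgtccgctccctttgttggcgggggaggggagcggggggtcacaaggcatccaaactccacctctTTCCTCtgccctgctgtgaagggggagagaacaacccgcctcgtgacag
Of the 3 copies in Clec4d 2 began after the annotated start, as did 1 of the 2 in Apoe and none of the 3 in Mrc1. A match describes these letters and does not show binding in this tissue.

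The receptors for colony-stimulating factors had differences above 0 in all 4 genes, and none of the 4 was called. Csf1r, the CSF1 receptor on which most macrophages depend, had log2 intensities of 8.71, 8.41, 8.18, 7.95 and 8.46 on PBS replicates 1 to 5 and 8.82, 8.39, 9.32 and 8.70 on PC61 replicates 1 to 4. PC61 replicates 1 and 3 lay above every PBS array and the other 2 did not, and the difference was 0.46 ± 0.23 (SE, adjusted p = 0.145), or 0.50 ± 0.24 (adjusted p = 0.155) without PC61 replicate 4. Csf3r, the G-CSF receptor of neutrophils, read 5.58, 5.24, 5.49, 5.48 and 5.23 on PBS replicates 1 to 5 and 5.84, 5.97, 5.92 and 4.83 on PC61 replicates 1 to 4. Its PC61 replicates 1 to 3 had an SD of 0.06 (n = 3) and lay above all PBS arrays, and replicate 4, where it was not detected, was below them. The difference was 0.24 ± 0.24 (adjusted p = 0.488) over 9 arrays and 0.51 ± 0.17 (adjusted p = 0.0547) without that array. The GM-CSF receptor chains Csf2ra and Csf2rb differed by 0.26 ± 0.22 and 0.55 ± 0.33 (adjusted p = 0.395 and 0.231), and both were highest on PC61 replicate 3.

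Among 8 measured surface and scavenger receptor genes, Gpnmb was called lower and 3 had differences above 0. Gpnmb encodes a transmembrane glycoprotein of macrophages and of pigment cells. Its values were 14.64, 14.61, 14.60, 14.68 and 14.88 on PBS replicates 1 to 5 and 14.13, 14.41, 13.76 and 12.82 on PC61 replicates 1 to 4. Every PC61 array lay below every PBS array, with replicate 4 far below the rest, and the difference was -0.90 ± 0.28 (SE, adjusted p = 0.0384). Its 4 probes went the same way, from -0.90 to -1.67, each with an adjusted p under the threshold in a fit of single probes. The melanocyte list mean on the same PC61 arrays was -0.996, -0.36, -1.66 and -4.60, the same order as Gpnmb, and the part of pigment cells in this fall was not tested. The call was lost without any 1 of the PBS arrays (adjusted p from 0.0572 to 0.0842), without PC61 replicate 3 (0.0899) or without PC61 replicate 4 (-0.58 ± 0.19, 0.0517), and with cyclic loess (0.0658).

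Adgre1, the gene of an adhesion receptor widely used to define mouse macrophages, did not separate the groups. It read 9.26, 8.48, 8.26, 8.94 and 8.41 on PBS replicates 1 to 5 and 8.83, 8.61, 9.32 and 7.90 on PC61 replicates 1 to 4. PC61 replicate 3 was the highest of all and replicate 4 the lowest, with a difference of -0.005 ± 0.30 (SE, adjusted p = 0.991). Without PC61 replicate 4 it was 0.25 ± 0.26 (adjusted p = 0.503), and the sign also turned with cyclic loess (0.12) and array weights (0.16). Mrc1, the mannose receptor CD206, read 9.73, 9.40, 8.49, 8.75 and 9.38 on PBS replicates 1 to 5 and 9.68, 8.90, 10.33 and 9.98 on PC61 replicates 1 to 4. PC61 replicates 3 and 4 were above every PBS array and replicate 2 was below 3 of them, for a difference of 0.57 ± 0.33 (adjusted p = 0.205). Folr2, the folate receptor of resident macrophages, and Cd163, the haemoglobin scavenger receptor, were at 0.93 ± 0.37 (adjusted p = 0.0828) and 0.64 ± 0.38 (adjusted p = 0.225). Folr2 passed without PBS replicate 1 (1.20, adjusted p = 0.0283) or without PC61 replicate 2 (1.20, adjusted p = 0.0257), and Mrc1 without PC61 replicate 2 (0.85, adjusted p = 0.0467). Stab1, a scavenger receptor also found on endothelium, was at -0.16 ± 0.19, and its 3 probes did not have the same sign. The tetraspan genes Ms4a7 and Ms4a6d were at -0.35 ± 0.45 and -0.60 ± 0.33, and at 0.15 ± 0.30 and -0.26 ± 0.25 without PC61 replicate 4.

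None of the 7 measured genes for TREM and Fc receptors, their adaptors and Sirpa was called, and their mean was the lowest of all the role groups on PC61 replicate 4, at -1.23. It was 0.15, 0.01 and 0.54 on PC61 replicates 1 to 3. Tyrobp, the DAP12 adaptor, read 9.01, 8.65, 8.61, 8.64 and 7.76 on PBS replicates 1 to 5 and 8.99, 8.89, 9.89 and 6.99 on PC61 replicates 1 to 4. PC61 replicate 3 was above every PBS array and replicate 4 below every one, so the difference of 0.15 ± 0.48 (SE, adjusted p = 0.832) averages opposite displacements. It was 0.72 ± 0.30 (adjusted p = 0.109) without PC61 replicate 4 and -0.25 (adjusted p = 0.730) without PC61 replicate 3. Fcer1g, the common gamma chain of Fc receptors, read 11.73, 11.57, 11.16, 10.80 and 10.93 on PBS replicates 1 to 5 and 11.22, 11.23, 11.92 and 9.74 on PC61 replicates 1 to 4, which is again highest on PC61 replicate 3 and lowest on replicate 4. Its difference was -0.21 ± 0.38 (adjusted p = 0.705), or 0.22 ± 0.26 without PC61 replicate 4. Trem2, a lipid receptor that signals through DAP12, was at 0.02 ± 0.48 and, without that array, at 0.55 ± 0.33 (adjusted p = 0.246). Fcgr1, the high-affinity IgG receptor, was at -0.70 ± 0.39 (adjusted p = 0.190) and was not detected on PC61 replicate 4, without which it was at -0.21 ± 0.19 (adjusted p = 0.446). Fcgr3 and the inhibitory receptor Fcgr2b were at -0.07 ± 0.27 and 0.22 ± 0.22, with the 2 probes of Fcgr2b on opposite sides of 0. Sirpa, the receptor for CD47, was between 11.45 and 11.76 on the PBS arrays and between 11.49 and 11.65 on PC61 replicates 1 to 3, and was 10.37 on PC61 replicate 4. Its difference was -0.33 ± 0.26 (adjusted p = 0.359), and its second probe was called lower in the fit of single probes (-0.79, adjusted p = 0.0419). That second probe was dim, with a mean of 5.29 over all arrays against 11.45 for the first, so background limits its fold.

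None of the 4 Toll-like receptor and co-receptor genes was called over 9 arrays or without PC61 replicate 4. Cd14, the co-receptor for lipopolysaccharide, read 7.14, 6.69, 6.64, 6.999 and 6.45 on PBS replicates 1 to 5 and 6.91, 6.96, 7.75 and 6.71 on PC61 replicates 1 to 4. Only PC61 replicate 3 left the PBS range, and the difference was 0.30 ± 0.24 (SE, adjusted p = 0.368). Tlr4, the lipopolysaccharide receptor that works with CD14, went the other way, at -0.66 ± 0.25 (adjusted p = 0.0659). All 4 PC61 arrays lay between 6.24 and 6.84 and 4 of the 5 PBS arrays between 7.12 and 7.495, while PBS replicate 3, at 6.38, lay inside the PC61 range. Tlr4 was called lower without that PBS array (-0.85, adjusted p = 0.0196) and without PC61 replicate 2 (-0.79, adjusted p = 0.0339). Its second probe was called lower in the fit of single probes (-0.69, adjusted p = 0.0376), as was Tlr4 with its probes averaged (-0.68, adjusted p = 0.0362) or with array weights (-0.83, adjusted p = 0.00524). Those weights were 5.42 for PC61 replicate 1, where Tlr4 was lowest, and 0.75, 0.66 and 0.19 for PC61 replicates 2 to 4. The receptor for bacterial lipoproteins, Tlr2, and the RNA sensor Tlr7 were at 0.24 ± 0.21 and 0.26 ± 0.25, and both were highest on PC61 replicate 3.

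The C-type lectins fell into 3 genes with differences above 0 and 3 below. Mgl2 and Clec10a encode closely related galactose-type lectins (CD301) of dermal and alternatively activated cells, and 1 probe may not keep such related genes fully apart. Mgl2 read 10.28, 9.38, 9.31, 8.59 and 8.86 on PBS replicates 1 to 5 and 10.65, 9.70, 11.27 and 10.83 on PC61 replicates 1 to 4. Of the PC61 arrays only replicate 2 lay inside the PBS range, below PBS replicate 1, and the rise was 1.33 ± 0.37 (SE, adjusted p = 0.0270), with its second probe at 1.27. The call was lost without PBS replicate 2, 4 or 5 (adjusted p = 0.0501, 0.0596 and 0.0653) and without PC61 replicate 1, 3 or 4 (0.0570, 0.0843 and 0.0506). Clec10a was at 0.83 ± 0.32 (adjusted p = 0.0751), and was called without PC61 replicate 2 (0.96, adjusted p = 0.0494). Cd209a, a DC-SIGN gene of monocyte-derived dendritic cells, was at 0.59 ± 0.32 (adjusted p = 0.182) but was detected on 1 of 5 PBS arrays and 3 of 4 PC61 arrays. The fungal and mycobacterial receptors Clec7a (Dectin-1), Clec4n (Dectin-2) and Clec4d were at -0.47 ± 0.49, -0.29 ± 0.43 and -0.24 ± 0.34. Each of these 3 was above the PBS range on PC61 replicate 3 and below it on PC61 replicate 4, and without the latter they were at 0.03, 0.17 and 0.13. The co-stimulatory genes Cd86 and Cd83 differed little, by 0.25 ± 0.22 and 0.08 ± 0.26 (adjusted p = 0.404 and 0.830).

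The activation-state genes gave both the lowest and the highest difference of the 43 genes. Chil3 (listed as Chi3l3), the chitinase-like protein Ym1, read 6.66, 6.70, 5.42, 5.25 and 6.24 on PBS replicates 1 to 5 and 4.96, 4.67, 5.16 and 4.37 on PC61 replicates 1 to 4. Every PC61 array lay below every PBS array, and the fall was -1.27 ± 0.33 (SE, adjusted p = 0.0219), or -1.13 ± 0.34 (adjusted p = 0.0433) without PC61 replicate 4. The gene was detected on all 5 PBS arrays and on 2 of the 4 PC61 arrays, so background limits its fold, and its difference was -0.73 with an offset of 50. Its second probe gave -1.10, and both may also bind closely related chitinase-like genes, so the identity is uncertain. The call was lost without PBS replicate 5 (-1.22, adjusted p = 0.0524). Retnla, the secreted protein RELM-alpha, read 11.65, 10.96, 9.29, 8.16 and 8.23 on PBS replicates 1 to 5 and 10.86, 10.86, 13.49 and 11.37 on PC61 replicates 1 to 4. PC61 replicate 3 was above every PBS array, the other PC61 arrays were near or below PBS replicates 1 and 2, and PBS replicates 3 to 5 were lower than all the others. The difference of 1.99 ± 0.78 was the largest of the 43 genes and was not called (adjusted p = 0.0794). It was called without PBS replicate 1 (2.49, adjusted p = 0.0354) and was 1.37 (adjusted p = 0.225) without PC61 replicate 3. Arg1, the arginase of suppressive macrophages, read 9.30, 7.18, 8.26, 8.04 and 8.20 on PBS replicates 1 to 5 and 8.94, 8.35, 9.08 and 9.28 on PC61 replicates 1 to 4. PBS replicate 1 was the highest of all, and the difference was 0.72 ± 0.36 (adjusted p = 0.155), or 0.99 (adjusted p = 0.0392) without that array.

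Of 7 measured genes for secreted or intracellular products, Apoe rose. Apoe, the lipid carrier apolipoprotein E, read 12.37, 11.72, 13.04, 11.87 and 11.63 on PBS replicates 1 to 5 and 13.44, 12.84, 13.25 and 13.90 on PC61 replicates 1 to 4. PBS replicate 3 overlapped with PC61 replicate 2, and the other PBS arrays were below all PC61 arrays. The rise was 1.23 ± 0.31 (SE, adjusted p = 0.0204) over 9 arrays and 1.05 ± 0.31 (adjusted p = 0.0407) without PC61 replicate 4, and the call was lost without PBS replicate 5 (0.0512) or PC61 replicate 3 (0.0550). The highest Apoe value was on PC61 replicate 4 and the highest PBS value on replicate 3, which were also the arrays with the highest keratinocyte list mean of their group (2.61 and 0.93). The rest of the PBS order differed. There the keratinocyte mean was lowest on replicate 4 (-1.48) and Apoe was lowest on replicate 5, where that mean was 0.20. The part of keratinocytes in the rise was not tested. Lyz2, the macrophage and neutrophil lysozyme, read 12.21, 12.42, 11.46, 11.94 and 12.10 on PBS replicates 1 to 5 and 12.81, 11.89, 13.05 and 11.84 on PC61 replicates 1 to 4. PC61 replicates 1 and 3 were above the PBS range, with a difference of 0.37 ± 0.30 (adjusted p = 0.367). Lyz1 is a near-identical copy whose probes may share signal with Lyz2. The probe that stood for it was at 0.38 ± 0.23 and its other 2 at 1.42 and 1.29, of which the first was called in the fit of single probes (adjusted p = 0.0497).

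Coro1a, a leukocyte actin regulator, read 10.66, 10.61, 10.45, 10.88 and 10.47 on PBS replicates 1 to 5 and 11.74, 10.98, 11.27 and 9.53 on PC61 replicates 1 to 4. PC61 replicates 1 to 3 were above every PBS array and replicate 4 was below them all. The difference was 0.27 ± 0.37 (SE, adjusted p = 0.607) over 9 arrays, and Coro1a rose by 0.72 ± 0.21 (adjusted p = 0.0370) without replicate 4. Without PC61 replicate 1 it was -0.02 (adjusted p = 0.975). Of its 4 probes 3 lay between 0.26 and 0.28 and the fourth was at -0.85, so the probes disagree. Laptm5, a lysosomal protein of leukocytes, was at 0.18 ± 0.23. Aif1 (IBA1) and the pore-forming Mpeg1, both used to mark macrophages, were at -0.63 ± 0.47 and -0.45 ± 0.44. On PC61 replicate 4 Aif1 was 6.32 and Mpeg1 7.78, against lowest values of 8.11 and 9.54 in PBS, and without that array the differences were -0.05 ± 0.26 and 0.10 ± 0.25.

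Of the 2 transcription factors Cebpb rose and Spi1 did not pass. Cebpb, the C/EBP-beta factor of emergency myelopoiesis and of suppressive myeloid cells, read 11.81, 11.40, 11.84, 11.44 and 12.14 on PBS replicates 1 to 5 and 13.003, 12.59, 13.05 and 13.46 on PC61 replicates 1 to 4. The lowest PC61 array was above the highest PBS array, and the rise was 1.30 ± 0.23 (SE, adjusted p = 0.0122), with 1.15 ± 0.22 (adjusted p = 0.0175) without PC61 replicate 4. It was called without any 1 of the 9 arrays (1.15 to 1.45, adjusted p at most 0.0427), the only 1 of the 43 genes of which this held. Its order over the PC61 arrays, highest on replicate 4 and lowest on replicate 2, was also that of the keratinocyte, skeletal muscle and fibroblast list means. The melanocyte list mean had the reverse order. In PBS Cebpb was highest on replicate 5 and lowest on replicate 2, while the keratinocyte, skeletal muscle and fibroblast means were all lowest on replicate 4. The part of those tissues was not tested. Spi1, the gene of PU.1, read 6.92, 6.20, 7.33, 7.02 and 6.83 on PBS replicates 1 to 5 and 7.60, 7.002, 7.60 and 5.82 on PC61 replicates 1 to 4. PC61 replicates 1 and 3 were above the PBS range and replicate 4 below it, for a difference of 0.15 ± 0.36 (adjusted p = 0.787), or 0.54 ± 0.26 (adjusted p = 0.150) without replicate 4. Cebpb and Spi1 thus lay at opposite ends on that array, at 13.46, the highest Cebpb value, and 5.82, the lowest Spi1 value.

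**Figure D4:**
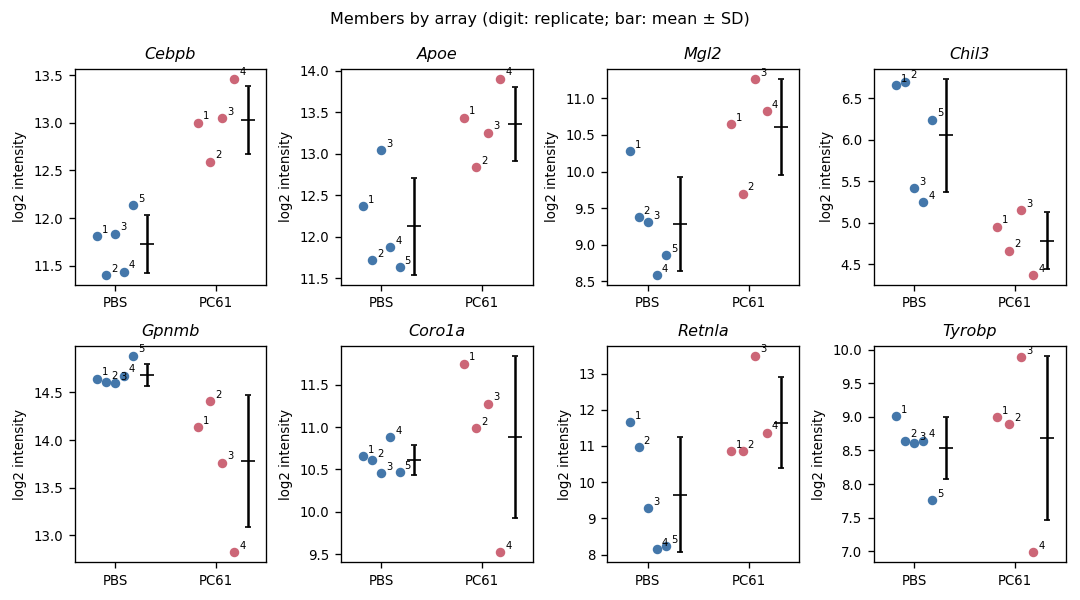
Log2 intensity (y axis, own scale in each panel) of Cebpb, Apoe, Mgl2, Chil3, Gpnmb, Coro1a, Retnla and Tyrobp on the 5 PBS arrays (blue) and 4 PC61 arrays (red), numbered by replicate, with the mean ± SD in black. The groups are apart for Cebpb, Chil3 and Gpnmb, and PC61 replicate 4 is the lowest array for Chil3, Gpnmb, Coro1a and Tyrobp.

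The list of 50 further myeloid genes (other lineage markers, ligands, signalling proteins, NADPH oxidase subunits, complement C1q and lysosomal proteases) had 30 measured, of which 1 rose and 1 fell, with a median of -0.01. These are 6.67% of the 30, against 26.5% of all genes. Cd74, the invariant chain of MHC class II, rose by 0.73 ± 0.24 (SE, adjusted p = 0.0428), and Ly96 (MD-2), the partner of TLR4 in binding lipopolysaccharide, fell by 1.07 ± 0.30 (adjusted p = 0.0253). Ly96 had no overlap between the groups, with PC61 between 6.14 and 7.60 and PBS between 7.81 and 8.62. Without PC61 replicate 4 the median was 0.23 and 3 were called higher and 1 lower, or 13.3% against 19.1% of all genes. Cd74 was then at 0.98 (adjusted p = 0.0174), the oxidase subunit Ncf1 at 1.07 (adjusted p = 0.0184) and C1qb at 0.66 (adjusted p = 0.0349), with Ly96 at -0.76 (adjusted p = 0.0358). The list mean was 0.25, 0.05 and 0.45 on PC61 replicates 1 to 3 and -0.84 on replicate 4. The ligands of CSF1R, Il34 and Csf1, were at 0.85 ± 0.30 (adjusted p = 0.0589) and -0.03 ± 0.20 (adjusted p = 0.914).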

How the data were processed

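Total RNA of 9 tumours, 5 PBS and 4 PC61, was amplified to biotin-labelled cRNA with the Ambion MessageAmp kit, per the labels' protocols. The raw table deposited by the authors gives a linear intensity and a detection p-value for 45273 probes per the file headers. The sources used here do not give the scanner or export settings. A detection p outside 0 to 1 removed 3 probes. Raw medians ran from 21.5 to 41.6, and 18572 to 20742 probes were detected on an array. The number of arrays limits the precision. The authors' normalized table, 17382 probes of linear intensity, served as an alternative. The ratio, test score and p-values that the authors deposited beside it are not printed here.

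Intensities were corrected by normexp (background taken from the detection p-values, offset 16), brought to 1 distribution by quantile normalization and put on a log2 scale (neqc, limma 3.58.1, R 4.3.3). These log2 values were computed here from the deposited intensities. Quantile normalization hides a shift shared by most genes, and the offset shrinks folds of dim probes. A probe entered when its detection p was below 0.05 on 4 arrays or more (20190 did, of which 14906 had 1 gene symbol from the platform annotation, updated by gene identifier through a RefSeq table). The platform annotation covers the probes of the normalized table alone. The probe with the highest mean stood for a gene, also for the 18 listed genes with several detected probes, whose probes had both signs in 3. Groups were compared with lmFit and eBayes, two-sided. Errors are SD over arrays for levels and limma's SE for differences. The procedure was also run on simulated data with independent noise for each gene. Those data hold no outlying array and no shift shared by genes, so that run cannot vouch for the calls here.

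The members and gene lists were chosen with earlier results of these data known. Values on every array are given for each gene called with or without PC61 replicate 4 and for Csf1r, Adgre1, Mrc1, Csf3r, Tyrobp, Fcer1g, Cd14, Lyz2, Spi1, Arg1 and Apoe. Retnla, which has the largest difference, was added after its values were seen, as were the alternatives quoted for other members. Of the further myeloid list, called genes are named, and Il34 and Csf1 were added. No protein sequence was used here. Same-numbered arrays of the groups had correlations of their deviations of -0.24, 0.01, 0.00 and -0.33. These gave no sign that the numbers pair the samples, and so few values cannot exclude it.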

Additional observations from a re-analysis of the deposited data

Results flagged for a closer look

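In 4 of 86 tests, 1 for each of the 43 genes in each group, 1 array lay far from the others of its group, by the gap to its nearest neighbour over the whole range. Chance flags about 1 in 20 groups. On PC61 replicate 4, Csf3r was at 4.831 and Sirpa at 10.366, the lowest PC61 values of both genes. Cd209a was at 5.661 on PBS replicate 1, the highest PBS value and the only PBS array on which it was detected. Gpnmb was at 14.884 on PBS replicate 5, the highest PBS value, within a PBS group that spans a narrow range.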

How the results depend on the processing

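The direction of the median over the members kept above 0 under every alternative (0.0587 to 0.357 when 1 array was left out, 0.22 over all). Calls moved more. Of 3 members called higher, leaving out 1 array gave 1 to 6 and array weights gave 9, out of 43. The count over all 10096 genes moved too, from 1552 called higher to between 527 and 1986 with 1 array left out. With array weights it was 2272. The weights were 5.42, 0.75, 0.66 and 0.19 on PC61 replicates 1 to 4 and from 0.72 to 1.54 on the PBS arrays. The PC61 side of the weighted fit thus rests mostly on replicate 1. Of 2 called lower, leaving out 1 array gave 0 to 3, cyclic loess gave 1 and a detection p under 0.01 on all arrays gave 1, since Chil3 was then not tested. Over all genes 1127 were called lower, against 226 to 1768 with 1 array left out and 858 with cyclic loess. With the stricter detection p it was 941 of 8101 genes. The replicate block called 0 members higher and 0 lower and 0 genes in all. Its numbers gave no sign of pairing the samples (0 of 4 PC61 arrays correlated best with their own number), which does not exclude it. PBS replicate 5 has no partner in the block. Under the block Tyrobp was at -0.0395. Over all genes, 2679 were called, against 4497 with array weights and from 753 (without PC61 replicate 3) to 3754 (without PC61 replicate 2) with 1 array left out. The sign turned for several genes, not only for those near 0, and the cause was not tested. With 1 array left out, Mpeg1 (-0.45 over 9 arrays) ran from -0.84 to 0.10 and Clec7a (-0.47) from -0.90 to 0.03. Adgre1 was at 0.12 with cyclic loess, 0.16 with array weights and -0.22 to 0.25 with 1 array left out. Coro1a was at -0.0098 as the mean of its probes and -0.019 to 0.72 with 1 array left out. With 1 array left out Fcer1g ran from -0.51 to 0.22, Spi1 from -0.0530 to 0.54 and Tyrobp from -0.25 to 0.72. The 75th percentile scaling put the median of all genes at -0.10 and cyclic loess at 0.06. With 5 and 4 arrays, and dim members such as Chil3, Cd209a and Csf3r near background, small differences could not be resolved.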
